A study of Mus musculus with 12 samples.

Results

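The HOX cluster genes described here are the 33 genes that the platform annotation names Hoxa, Hoxb, Hoxc or Hoxd with a number, out of 18193 genes tested. Each gene was read from 1 probe set, the one with the highest mean over the 12 arrays among probe sets tied to exactly 1 gene. Hoxb8 and Hoxd4 lay only on probe sets shared with another gene, and HOX genes without a probe set of their own were not analysed here. The cells were keratinocytes from the skin of mice whose strain is given as C57 DBA, parted by magnetic sorting into a CD34+ and a CD34- fraction. CD34 is a surface glycoprotein that marks the bulge of the mouse hair follicle, the niche of its slowly cycling stem cells. Each of 3 isolations pooled 6 or more mice, and each fraction's RNA was put on 2 Affymetrix Mouse 430 2.0 arrays, which gives 6 arrays of 3 RNA samples per fraction. No age, genetic change or treatment is given for these mice. The titles number the arrays 1 to 6 and do not say which share an RNA, or which CD34+ and CD34- arrays share an isolation. The arrays were therefore tested singly and unpaired, and p-values are too small wherever arrays of 1 RNA are alike.

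HOX proteins are homeodomain transcription factors encoded in 4 clusters, a to d. Genes are numbered by paralog group along each cluster, and in the embryo the low numbers are switched on earlier and nearer the head than the high numbers. The proteins bind short DNA sites with a TAAT core, often together with partners of the TALE homeodomain family such as PBX and MEIS proteins. In adult skin, HOX expression keeps a record of body position, best known from dermal fibroblasts, and a few members also act in epithelium, HOXC13 in the hair shaft and nail above all.

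The sort left its mark on the arrays: Cd34 itself read 10.15 ± 0.55 (SD, n = 6 arrays) in the CD34+ and 3.23 ± 0.30 in the CD34- fraction on the log2 scale of the deposited values, on which a difference of 1 is a 2-fold change. Of 11 bulge stem cell markers, 10 were higher in CD34+ arrays (90.9%, against 7.99% of all genes). The list includes Cd34, on which the cells were sorted, and was chosen with earlier results of these data known. Its count is therefore no independent check of the sort. The keratins Krt10 and Krt15, the keratinocyte markers with the highest means, were above 13 on average in both fractions. Krt15 differed by -0.29 on the log2 scale (CD34+ minus CD34-, limma adjusted p = 0.106). Of the 11 keratinocyte markers, 5 were lower in CD34+ arrays (45.5%, against 18.1% of all genes), with Krt14 at -1.37. Arrays 1, 3 and 5 of the CD34+ fraction stood apart, with an SD over all probe sets of 1.92 to 2.07 against 2.19 to 2.32 on the other 9 arrays. The gap between the 3' and 5' probe sets of beta-actin, a measure of RNA integrity, was 3.95 to 5.65 in CD34+ and 1.82 to 3.24 in CD34- arrays. The part of these differences in the HOX results was not tested, except where values without the 3 arrays are given. Fewer cells of a type and less RNA per cell cannot be told apart in such bulk RNA.

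HOX transcripts were unequally spread between the fractions, and the larger differences were toward the CD34+ cells. Of the 33 genes, 9 were higher in CD34+ cells (27.3%), 2 were lower (6.06%) and 22 did not pass (limma, with p under 0.05 after Benjamini-Hochberg adjustment across genes). Over all 18193 genes, 26.1% passed, 7.99% higher and 18.1% lower. Hoxd8 rose most, by 25.9-fold, and Hoxc13 by 4.33-fold. These are the HOX genes that changed by 2-fold or more, a size reached by 6.76% of all genes. The other 7 that rose did so by less than 2-fold, as did the falls of Hoxc4 and Hoxa7. A positive log2 fold change was found for 27 of the 33 HOX genes and for 9930 of all 18193 genes. Among 33 measured homeobox genes of the same class outside the clusters, 31 were positive. The median log2 fold change was 0.25 over the HOX genes and 0.04 over all genes. Each array centred on its own median moved these medians to 0.15 and -0.06 and the HOX calls to 5 higher and 3 lower, and further quantile normalization gave 9 higher and 1 lower. The arrays of the fractions did not overlap for 8 HOX genes (24.2%), against 12.9% of all genes.

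**Figure D1:**
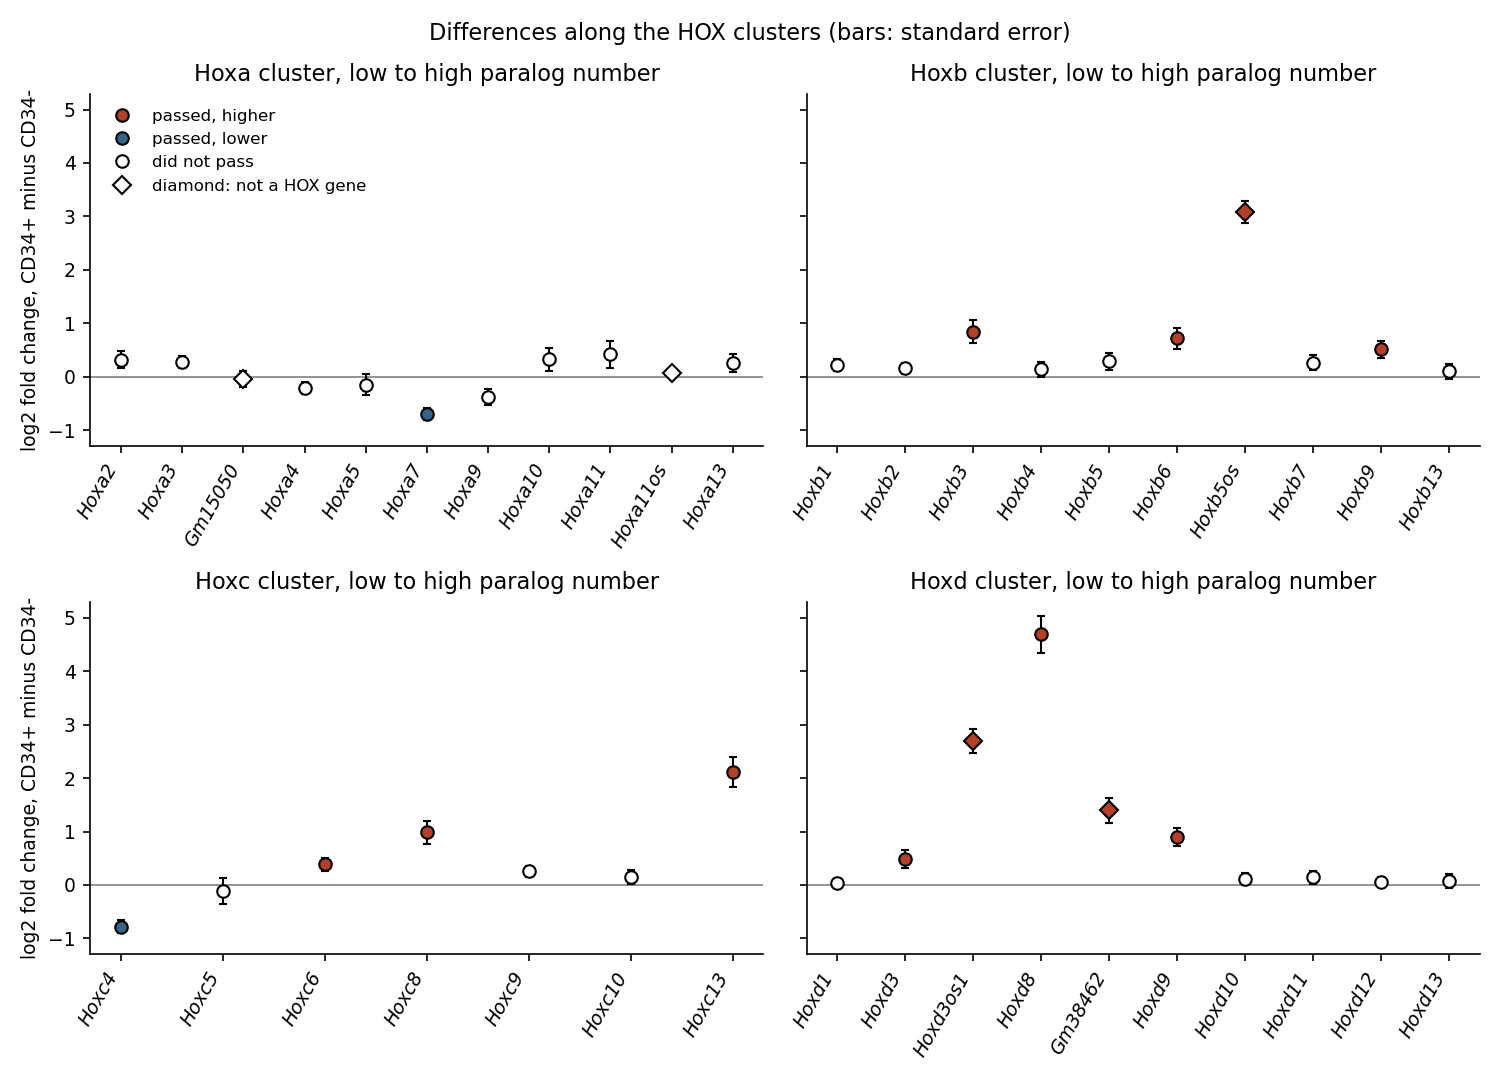
Log2 fold change (CD34+ minus CD34-, with its standard error) of the measured genes of each HOX cluster. HOX genes run from low to high paralog number, and other transcripts stand at their places in the RefSeq order. Circles are HOX genes and diamonds are other transcripts within the clusters, filled red where the gene was higher, blue where it was lower and white where it did not pass. Hoxd8 (4.70) and Hoxc13 (2.11) stand above all other HOX genes, and Hoxb5os (3.08) and Hoxd3os1 (2.69) stand above every HOX gene but Hoxd8.

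The plot along the clusters shows 3 of 8 Hoxd genes higher, 3 of 9 Hoxb genes higher, 3 higher and 1 lower of 7 Hoxc genes, and of 9 Hoxa genes only Hoxa7 past the test, which was lower. In the Hoxa cluster limma called 0 higher, and 1 had an unadjusted p under 0.05. By paralog group, 4 of 9 genes of groups 5 to 8 rose and 1 fell, 2 of 10 rose and 1 fell in groups 1 to 4, and 3 of 14 rose in groups 9 to 13. The share that passed was 11.1% in Hoxa, 33.3% in Hoxb, 57.1% in Hoxc and 37.5% in Hoxd, against 26.1% of all genes. It was 30% in groups 1 to 4, 55.6% in groups 5 to 8 and 21.4% in groups 9 to 13. Over all genes 7.99% were higher and 18.1% lower. With 7 to 14 genes each, such shares rest on few genes. No test of a difference between clusters or groups was made. Cluster medians of the log2 fold change were 0.25 (Hoxa), 0.26 (Hoxb), 0.26 (Hoxc) and 0.13 (Hoxd).

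Hoxd8, a middle member of the Hoxd cluster, ran from 8.18 through a median of 8.66 to 10.58 on the CD34+ arrays and from 4.04 through 4.36 to 4.69 on the CD34- arrays. Every CD34+ array lay more than 3 log2 units above every CD34- array, and CD34+ arrays 1 and 2 were the highest. The means were 9.05 ± 0.94 and 4.35 ± 0.26 (SD, n = 6 arrays each), a log2 fold change of 4.70 (SE 0.35, limma adjusted p = 9.43e-07). It ranked 11th of 18193 genes by that value. A further probe set of Hoxd8 read 6.27 ± 0.82 against 3.10 ± 0.17, a difference of 3.17 (adjusted p = 1.73e-05 over all probe sets). Without CD34+ arrays 1, 3 and 5 the difference of Hoxd8 was 4.95.

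Hoxd9, its neighbour toward the high-numbered end, read 5.26, 5.86 and 6.28 (lowest, median and highest) on the CD34+ arrays and 4.47, 4.99 and 5.23 on the CD34- arrays. The fractions did not overlap, though the lowest CD34+ array lay just above the highest CD34- array. Hoxd9 differed by 0.90 on the log2 scale (SE 0.17, limma adjusted p = 0.00163). Hoxd3, a gene of neck vertebra patterning, read 3.01, 3.40 and 3.76 on the CD34+ arrays and 2.62, 2.88 and 3.24 on the CD34- arrays. Its fractions overlapped, and its CD34- mean of 2.91 lay under 2.95, the highest reading of the array's Trpn control, a bacterial gene used here to mark the low end of the scale. The log2 fold change of Hoxd3 was 0.49 (SE 0.16, adjusted p = 0.0419), and the call was lost without CD34+ arrays 1, 3 and 5 (0.23, adjusted p = 0.390). Probe sets shared by Hoxd4 and Hoxd3 differed by 0.53 and 0.61 (adjusted p = 0.00434 and 0.00194 over all probe sets), with no overlap of the fractions. The high-numbered end of the cluster did not pass: Hoxd10, Hoxd11, Hoxd12 and Hoxd13, known for the digits and genitalia, had values of 0.11, 0.15, 0.05 and 0.07. Hoxd1 was at 0.03. Hoxd1, Hoxd10 and Hoxd12 had means below the Trpn mark in both fractions, so that little can be read from them.

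RefSeq promoter entries were at hand for 19 of the 33 genes, and those of the 3 Hoxd genes that rose are shown because these genes lie near each other in the cluster. Each is the 250 bases before the start of the gene in GRCm38.p6, 5′ to 3′ on the strand of the gene (here +), with capitals marking TAAT or its reverse complement ATTA. Hoxd9 is at chr2:74697513-74697762, Hoxd8 at chr2:74704365-74704614 and Hoxd3 at chr2:74711743-74711992.
Hoxd9: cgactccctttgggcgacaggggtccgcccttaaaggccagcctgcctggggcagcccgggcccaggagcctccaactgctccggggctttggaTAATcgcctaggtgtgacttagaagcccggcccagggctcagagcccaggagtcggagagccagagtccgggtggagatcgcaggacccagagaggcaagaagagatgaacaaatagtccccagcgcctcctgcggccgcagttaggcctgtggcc
Hoxd8: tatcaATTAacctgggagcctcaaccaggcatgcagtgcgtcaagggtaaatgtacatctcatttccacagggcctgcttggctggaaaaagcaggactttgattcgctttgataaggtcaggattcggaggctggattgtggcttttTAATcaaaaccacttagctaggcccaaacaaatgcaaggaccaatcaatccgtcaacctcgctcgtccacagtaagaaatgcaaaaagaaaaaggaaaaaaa
Hoxd3: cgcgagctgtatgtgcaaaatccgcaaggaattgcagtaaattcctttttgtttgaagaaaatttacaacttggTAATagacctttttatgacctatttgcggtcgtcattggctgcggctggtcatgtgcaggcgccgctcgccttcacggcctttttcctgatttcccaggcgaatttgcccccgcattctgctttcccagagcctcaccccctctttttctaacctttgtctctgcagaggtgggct
The TAAT core was found 2 times before Hoxd8 and 1 time each before Hoxd9 and Hoxd3. On either strand, 54.9% of 32851 promoters of this length hold it. The GC content was 44.4% before Hoxd8, 65.2% before Hoxd9 and 49.2% before Hoxd3, against a median of 52.4% over all promoters. CG dinucleotides numbered 6, 13 and 12 in the same order, with a median of 6 and quartiles of 2 and 16 over all promoters. TGATNNAT, a form of the joint site of PBX and HOX proteins that may share letters with a TAAT core, was found before none of the 3 and in 7.68% of all promoters on either strand. These matches describe letters in a window, not bound sites.

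Hoxc13, at the high-numbered end of the Hoxc cluster, encodes a regulator of hair keratin genes. It read 6.09, 6.33 and 8.16 (lowest, median and highest) on the CD34+ arrays and 4.24, 4.54 and 4.71 on the CD34- arrays. The fractions did not overlap, and CD34+ array 2 lay far above the other 5, which ran from 6.09 to 6.57. The means were 6.61 ± 0.78 and 4.49 ± 0.20 (SD, n = 6 arrays each), with a log2 fold change of 2.11 (SE 0.29, limma adjusted p = 1.65e-04). It was 1.80 without CD34+ array 2. Hoxc13 ranked 102nd of 18193 genes.

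Hoxc8, a gene of thoracic patterning, read 7.96, 8.21 and 8.98 on the CD34+ arrays and 6.89, 7.51 and 7.87 on the CD34- arrays. All CD34+ arrays were above all CD34- arrays, and CD34+ arrays 1 and 2 were the highest. The log2 fold change of Hoxc8 was 0.99 (SE 0.21, limma adjusted p = 0.00371), and it was 0.71 without those 2 arrays (adjusted p = 0.0168). Hoxc6, known from the trunk and the mammary gland, read 5.72, 5.85 and 6.22 on the CD34+ arrays and 5.15, 5.58 and 5.69 on the CD34- arrays. The fractions of Hoxc6 touched closely without overlap, and its log2 fold change was 0.39 (SE 0.12, adjusted p = 0.0277). Its other probe sets differed by 0.46 (adjusted p = 0.0361) and 0.30 (adjusted p = 0.0813). The call on Hoxc6 was lost with the array number as a block (adjusted p = 0.0573), without CD34- array 3 (adjusted p = 0.0589) and without CD34- array 4 (adjusted p = 0.0535). Hoxc9, beyond Hoxc8 in the cluster, was at 0.26 (adjusted p = 0.0726) and passed without CD34+ array 6 (adjusted p = 0.0393). Hoxc5 was at -0.11 and Hoxc10 at 0.15, the latter below the Trpn mark in both fractions.

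Hoxc4 opens the cluster at its low-numbered end and went the other way. It read 5.63, 5.88 and 6.11 on the CD34+ arrays and 6.30, 6.69 and 6.89 on the CD34- arrays. Every CD34+ array was below every CD34- array, and Hoxc4 differed by -0.78 on the log2 scale (SE 0.13, limma adjusted p = 5.56e-04). Hoxc4 is known from the upper spine and is also active in lymphocytes. Hoxa7, which is expressed in keratinocytes and is known to restrain their differentiation genes, was the other HOX gene that fell. It read 6.72, 6.96 and 7.21 on the CD34+ arrays and 7.39, 7.67 and 7.89 on the CD34- arrays. These fractions did not overlap either, and the log2 fold change of Hoxa7 was -0.70 (SE 0.12, adjusted p = 6.96e-04). It kept its sign but not its call after further quantile normalization (-0.40, adjusted p = 0.0935). T cell markers were lower in the CD34+ fraction as well: 9 of 11 fell (81.8%, against 18.1% of all genes), with Cd3g at -3.29 and Ptprc at -2.80. The mean level of the list was 5.12 to 5.91 on CD34+ and 6.48 to 7.23 on CD34- arrays. The part of T cells in the falls of Hoxc4 and Hoxa7 was not tested.

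The promoter entries of these genes that fell, shown for comparison with those of the Hoxd genes that rose, lie at chr15:103034145-103034394 on the + strand for Hoxc4 and at chr6:52218574-52218823 on the - strand for Hoxa7 (GRCm38.p6, 250 bases before the start, 5′ to 3′ on the strand of the gene, capitals as before).
Hoxc4: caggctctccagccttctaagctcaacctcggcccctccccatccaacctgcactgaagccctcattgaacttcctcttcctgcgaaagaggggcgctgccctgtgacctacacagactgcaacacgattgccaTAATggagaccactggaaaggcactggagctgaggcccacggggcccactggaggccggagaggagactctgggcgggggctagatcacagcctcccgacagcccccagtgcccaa
Hoxa7: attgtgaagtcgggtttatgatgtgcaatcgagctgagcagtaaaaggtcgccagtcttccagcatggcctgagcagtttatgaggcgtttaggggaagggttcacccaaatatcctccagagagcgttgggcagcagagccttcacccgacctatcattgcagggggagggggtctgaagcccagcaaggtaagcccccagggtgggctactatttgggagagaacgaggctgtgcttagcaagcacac
The TAAT core was found 1 time before Hoxc4 and was not found before Hoxa7, and TGATNNAT was found before neither. Their GC contents were 62.0% and 54.8%, and they held 8 and 7 CG dinucleotides. No promoter entry was used for Hoxb3, Hoxb6, Hoxb9, Hoxc6, Hoxc8 or Hoxc13.

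In the Hoxb cluster the rises were modest. Hoxb3, known from the hindbrain and throat, read 6.85, 7.14 and 8.15 (lowest, median and highest) on the CD34+ arrays and 6.14, 6.57 and 6.64 on the CD34- arrays. The fractions did not overlap, and CD34+ arrays 1 and 2 were again the highest. The log2 fold change of Hoxb3 was 0.84 (SE 0.21, limma adjusted p = 0.0108) and fell to 0.50 without those 2 arrays (adjusted p = 0.0184). A further Hoxb3 probe set differed by 0.29 and did not pass (adjusted p = 0.15 over all probe sets). Hoxb3 shares sequence span with Hoxb4 in RefSeq, and Hoxb4 was at 0.13. A further Hoxb4 probe set was at 0.35, just short of the threshold (limma adjusted p = 0.0530 over all probe sets).

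Hoxb6, a marker of the embryo's flank, read 6.49, 7.10 and 7.62 on the CD34+ arrays and 5.80, 6.41 and 6.74 on the CD34- arrays. The fractions overlapped, and Hoxb6 differed by 0.72 on the log2 scale (SE 0.20, limma adjusted p = 0.0177). The call was lost without CD34+ arrays 1 and 2 (0.62, adjusted p = 0.0582). Hoxb9, which with its paralogs shapes the rib cage, read 3.52, 3.94 and 4.47 on the CD34+ arrays and 3.23, 3.42 and 3.58 on the CD34- arrays. The fractions overlapped at a low level, and the log2 fold change of Hoxb9 was 0.51 (SE 0.16, adjusted p = 0.0267). Leaving out CD34+ array 1 or 5 or CD34- array 1 or 3 ended this call (adjusted p = 0.0629, 0.0597, 0.0527 and 0.0590). The other Hoxb genes, Hoxb1, Hoxb2, Hoxb5, Hoxb7 and Hoxb13, lay between 0.10 and 0.29 and did not pass. A probe set shared by Hoxb8 and Hoxb7 was at 0.04 (adjusted p = 0.940).

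**Figure D2:**
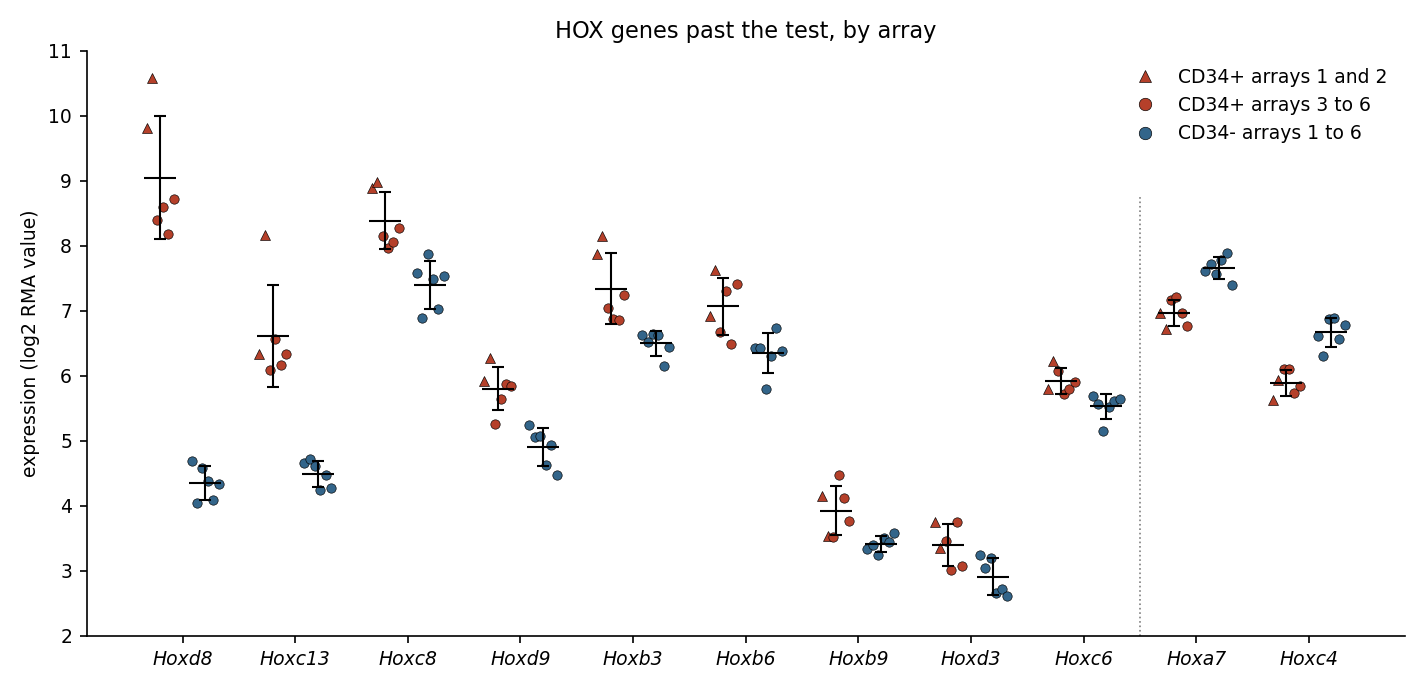
Log2 RMA values of the 11 HOX genes past the test, by array, with the mean and SD of each fraction as bars, CD34+ in red and CD34- in blue. The 9 genes left of the dotted line were higher in CD34+ cells and the 2 right of it were lower. Triangles mark CD34+ arrays 1 and 2, which are the highest for Hoxb3, Hoxc8, Hoxd8 and Hoxd9. Levels of different genes come from different probe sets and are not comparable.

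Among the Hoxa genes that did not pass, Hoxa2, Hoxa3, Hoxa10, Hoxa11 and Hoxa13 had positive values of 0.25 to 0.41, and Hoxa4, Hoxa5 and Hoxa9 had negative values of -0.21, -0.15 and -0.39. Hoxa5 was well above the low mark, with 8.25 ± 0.48 in CD34+ and 8.40 ± 0.27 in CD34- arrays. Hoxa9, a gene of blood stem cells and of the posterior trunk, read 8.11 ± 0.23 and 8.50 ± 0.31 (adjusted p = 0.0744) and passed as lower when CD34+ array 2 or CD34- array 5 was left out (-0.47 and -0.49, adjusted p = 0.0272 and 0.0222). Its other probe set had the opposite sign, at 0.27 (adjusted p = 0.323). Hoxa10, Hoxa11 and Hoxa13 passed as higher on the odd-numbered arrays (0.82, 0.92 and 0.57, adjusted p = 0.00386, 0.0163 and 0.0159) and had negative values without CD34+ arrays 1, 3 and 5 (-0.17, -0.09 and -0.10). Hoxa10 also passed on means of arrays 1-2, 3-4 and 5-6 (limma adjusted p = 0.0496). Each of these CD34+ means joins 1 of arrays 1, 3 and 5 with an array that read lower, and the SE went from 0.22 to 0.10. The CD34- mean of Hoxa10, 2.91, lay under the Trpn mark. Hoxa2, a gene of the head's neural crest, was at 0.32 (adjusted p = 0.143), and at 0.61 without CD34+ arrays 1, 3 and 5, where it passed (adjusted p = 0.00515). It also passed without CD34+ array 5 alone (adjusted p = 0.0409). Hoxb5, at 0.29 with all arrays, likewise passed without the 3 arrays (0.58, adjusted p = 0.0147).

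CD34+ arrays 1, 3 and 5 were the 3 highest CD34+ arrays for 12 of the 33 HOX genes (36.4%), against 3572 of all 18193 genes (19.6%). Of these 12, Hoxd3 passed the test and 11 did not. Hoxa11 is an example, at 3.91, 4.85 and 4.12 on these arrays and at 2.98 to 3.54 on the other CD34+ arrays. Without them the median over the 33 HOX genes was 0.12, against 0.006 over all genes, and 20 HOX genes had a positive value. In that setting 8 HOX genes were higher and 2 lower, against 1602 and 1900 of all 18193 genes. CD34+ arrays 1 and 2, which lead in the plot of values by array, were the highest pair for 4 of the 9 genes that rose (44.4%), against 345 of the 1454 genes that rose in all (23.7%). Their beta-actin gaps were 4.68 and 5.65, and array 6, which is not in this pair, had one of 4.87. The part of RNA integrity in this was not tested. Without both arrays, an alternative chosen after seeing the data, 6 HOX genes were higher and 3 lower, against 1098 and 2714 of all genes.

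Transcripts that are not HOX genes but lie inside the clusters gave some of the largest differences. Hoxb5os, which overlaps Hoxb5 and Hoxb6 in RefSeq, read 7.84, 8.19 and 9.17 (lowest, median and highest) on the CD34+ arrays and 5.02, 5.22 and 5.68 on the CD34- arrays. All CD34+ arrays were more than 2 log2 units above all CD34- arrays, and Hoxb5os differed by 3.08 on the log2 scale (SE 0.21, limma adjusted p = 5.14e-07), 54th of 18193 genes. Hoxb5 and Hoxb6, with which it shares sequence span, were at 0.29 and 0.72. Hoxd3os1, which lies between Hoxd8 and Hoxd3 and overlaps Hoxd3, read 5.67, 6.41 and 7.07 on the CD34+ arrays and 3.34, 3.66 and 4.28 on the CD34- arrays. The fractions of Hoxd3os1 did not overlap, with a log2 fold change of 2.69 (SE 0.22, adjusted p = 2.84e-06). Its other probe set differed by 0.30 (adjusted p = 0.312).

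Gm38462, a predicted gene that overlaps Hoxd3, Hoxd3os1 and Hoxd8 and was looked up after its values were seen, was higher by 1.40 (SE 0.23, limma adjusted p = 6.50e-04). Hoxa11os was at 0.06 and Gm15050, within Hoxa3, at -0.05. Hoxb5os, Hoxd3os1 and Hoxa11os are the 3 measured members of an 18-gene list of cluster noncoding transcripts, of which 2 rose. The strand read by each probe set was not checked, so signal from overlapping genes on opposite strands cannot be told apart, and the values of Hoxb6, Hoxd3 and Hoxd8 carry this uncertainty. Both Hoxb5os and Hoxd3os1 were past the test under all 25 alternatives, at 2.73 to 3.43 and 1.49 to 2.95.

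**Figure D3:**
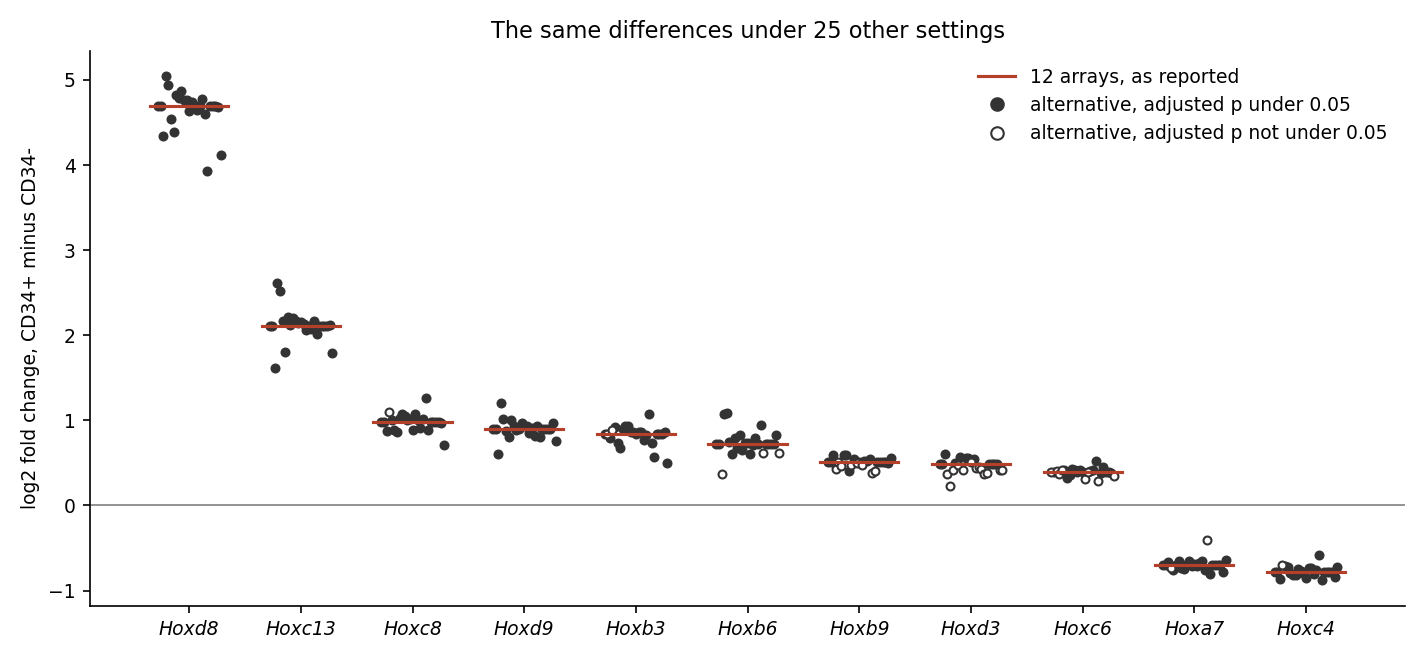
Log2 fold change (CD34+ minus CD34-) of the 11 HOX genes past the test, with the reported value as a red line and each of 25 alternatives as a point, filled where the limma adjusted p was under 0.05. Hoxd8, Hoxc13 and Hoxd9 have filled points only. Hoxd3 has 12 filled points of 25, the fewest of the 11.

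The strength of the calls differed. Hoxd8, Hoxc13 and Hoxd9 passed under all 25 alternatives, with values of 3.93 to 5.05, 1.62 to 2.61 and 0.60 to 1.20. Hoxc4 and Hoxc8 passed in 24, Hoxa7 and Hoxb3 in 23, Hoxb6 in 22, Hoxb9 and Hoxc6 in 17 and Hoxd3 in 12. No gene among the 11 changed sign. Leaving out single arrays ended the call on Hoxd3 for CD34+ arrays 1, 3 and 5 and for CD34- arrays 2, 4, 5 and 6 (adjusted p = 0.0522 to 0.0969). Centring each array on its median ended the calls on Hoxb6, Hoxb9, Hoxc6 and Hoxd3 (adjusted p = 0.0567, 0.0895, 0.0913 and 0.0836). The even-numbered arrays alone kept Hoxb6, Hoxc13, Hoxd8 and Hoxd9 past the test. On the odd-numbered arrays Hoxb6 and Hoxc6 lost their calls (adjusted p = 0.241 and 0.102), and Hoxb6 ran from 0.37 on odd-numbered to 1.07 on even-numbered arrays. Means of arrays 1-2, 3-4 and 5-6 left Hoxb3 just short of it (adjusted p = 0.0533). Leaving CD34+ arrays 1, 3 and 5 out together also ended the calls on Hoxb9 (adjusted p = 0.0659) and Hoxc6 (adjusted p = 0.0646). In that setting Hoxc13 was at 2.53, Hoxb6 at 1.09, Hoxd9 at 1.02, Hoxc8 at 1.00 and Hoxb3 at 0.92, each as large as with all arrays or larger. Of 48 probe sets tied to a single HOX gene, 13 passed over all 45037 probe sets, of which 21.5% passed.

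Partners and inputs of HOX proteins were read from lists chosen with earlier results of these data known. Of 9 TALE cofactors measured, Pknox2 was higher (0.78, SE 0.12, limma adjusted p = 4.10e-04) and the rest did not pass, so that 11.1% of the list was called against 26.1% of all genes. Pknox2 read 5.18 to 5.81 on the CD34+ and 4.36 to 4.79 on the CD34- arrays, with no overlap. Pbx3 and Pknox1, those with the highest means, were at 0.82 (adjusted p = 0.162) and -0.13. Pbx3 ranged from 5.28 to 8.76 over the CD34+ arrays alone. The list median was 0.13. Leaving out CD34+ arrays 1, 3 and 5 gave 3 higher and 1 lower, and further quantile normalization gave 2 higher.

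Of 31 chromatin and upstream regulators of the clusters measured, 9 fell, and limma called 0 higher where 2 had an unadjusted p under 0.05. The share that passed, 29.0%, was near the 26.1% of all genes. The list median was -0.18 and lay within the quartiles of all genes (-0.34 to 0.22). Further quantile normalization gave 3 higher and 7 lower, with a median of -0.03. The largest falls were Gmnn (-1.34), whose product geminin restrains replication and binds Hox regulators, Ezh2 (-1.13), the methyltransferase of Polycomb complex PRC2, and the histone demethylases Kdm6b (-1.09) and Kdm6a (-0.99). Yy1 (-0.26) and Jarid2 (-0.18), with the highest means, did not pass.

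Of 15 measured retinoic acid genes, which handle or sense a signal that sets HOX expression in embryos, 1 rose and 3 fell (26.7% passed, against 26.1% of all genes), with a median of 0.12. Leaving out CD34+ arrays 1, 3 and 5 gave 2 higher, 1 lower and a median of -0.05. Cyp26b1, which breaks retinoic acid down, rose by 1.44, while the receptors Rarg (-0.98) and Rxra (-0.72) and the carrier Crabp2 (-0.93) fell. Of 20 genes that flank the clusters, 2 rose and 3 fell (25% passed, near the 26.1% of all genes). Their median of -0.07 turned to 0.06 after further quantile normalization. Copz2 (0.93) and Snx10 (0.47) rose, Skap1 (-0.83), Nfe2l1 (-0.66) and Smug1 (-0.51) fell, and Tax1bp1 (-0.13) and Hnrnpa1 (-0.29) did not pass. The rises of Hoxb genes stood among neighbours with values of both signs, such as Copz2, Skap1 and Nfe2l1 near the Hoxb cluster.

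Few genes of the hair programme tied to HOXC13 passed. Of 22 measured hair keratins and regulators, 2 rose and 2 fell, 18.2% against 26.1% of all genes, with a median of 0.15. Msx1 (0.74) and the inner root sheath keratin Krt71 (0.30) rose, and Foxq1 (-0.79) and the hair keratin Krt33a (-0.37) fell. Krt32, with Foxq1 the member with the highest mean, was at -0.26 (limma adjusted p = 0.277). Of 33 measured homeobox genes of the same class outside the clusters, 2 rose, Dlx2 (0.98) and Msx1 (6.06%, against 7.99% of all genes), and the median was 0.17. It was 0.03, with 1 higher and 1 lower, when CD34+ arrays 1, 3 and 5 were left out. Msx2 was at 0.08. No difference between lists was tested.

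**Figure D4:**
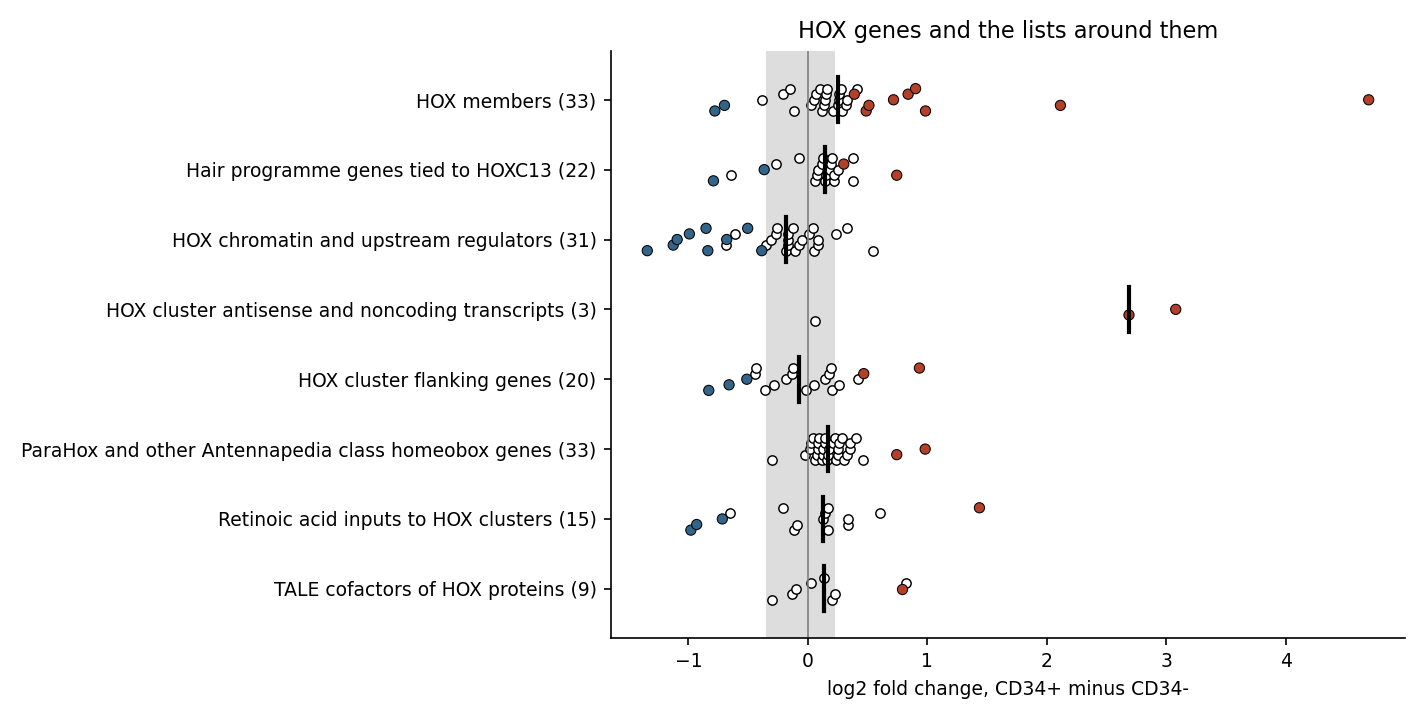
Log2 fold change (CD34+ minus CD34-) of each measured gene of the HOX clusters and of 7 lists around them, with the number of genes in brackets and a vertical bar at the median. Points are red or blue where the gene was higher or lower with a limma adjusted p under 0.05 and white where it did not pass, and the grey band spans the quartiles of all genes (-0.34 to 0.22). The HOX genes reach furthest to the right, apart from 2 noncoding transcripts at 2.69 and 3.08 that only Hoxd8 exceeds.

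Markers of cell types that carry HOX transcripts of their own were read beside these results. Of 13 dermal fibroblast markers measured, 6 were higher and 1 lower in CD34+ cells, with a median of 0.95. These are 46.2% and 7.69%, against 7.99% higher and 18.1% lower over all genes. Col1a2 (3.15) and Col5a2 (3.02) rose most, Thy1 (-1.90) fell, and Vim (0.68, limma adjusted p = 0.580) and Mmp2 (-0.20) did not pass. Thy1 is also on the T cell list, of which 9 of 11 measured markers fell. The list's mean level was 5.61 to 6.74 on CD34+ and 4.78 to 5.52 on CD34- arrays. When CD34+ arrays 1, 3 and 5 were left out, 5 of the 13 were higher and 1 lower, with a median of 0.30. Of 10 dermal papilla markers, 4 rose (40%) and 1 fell (10%), with Rspo3 at -2.02 and Trps1 at 1.46. The part of dermal cells in the HOX differences was not tested.

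Other lists were mixed or low. Of 11 keratinocyte markers 5 fell (45.5%), with Krt14 at -1.37 and Itgb4 at -1.18. Of 12 Langerhans and myeloid markers 5 fell (41.7%), with H2-Ab1 at -1.23 and Fcer1g at -1.21. Over all genes 18.1% fell. Melanocyte markers had 2 higher and 1 lower of 9, Schwann cell markers 2 and 1 of 6, smooth muscle markers 1 and 1 of 8, hair matrix and inner root sheath markers 1 and 1 of 11, and endothelial markers 1 higher of 12. In this order 33.3%, 50%, 25%, 18.2% and 8.33% passed, against 26.1% of all genes. Mitf (3.13), Pmp22 (2.09), Mylk (-0.72), Gata3 (-1.66) and Ramp2 (0.64) changed most in these lists. Other members past the test were Sox10 (0.49) on the melanocyte and Schwann cell lists, Tyrp1 (-0.67) among melanocyte and Mbp (-0.61) among Schwann cell markers. Myh11 (0.29) and Krt71 (0.30) also rose, for smooth muscle and the hair matrix and inner root sheath. The melanocyte list had a median of -5.2e-04. Limma called 0 of 8 mast cell and 0 of 6 adipocyte markers, with 4 and 1 at an unadjusted p under 0.05.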

How the data were processed

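Each array gave 1 value per probe set. The authors deposited log2 values that RMA had produced, as the submitters' processing notes say; its version and whether all 12 arrays were normalized together are not given in the sources used here. Of 45101 probe sets, 64 controls were set aside. The platform annotation tied 34945 to 1 gene and 932 to several, and 9160 were unnamed here. The test was limma's moderated test of 6 arrays against 6 (version 3.58.1, R 4.3.3), two-sided, with no block and no filter on low values, and Benjamini-Hochberg adjustment ran over 18193 genes. The number of arrays limits the precision, and standard errors are limma's. The 3 Trpn control probe sets read 2.31 to 2.95. Genes named are all HOX genes, and from each pathway list genes past the test with the largest changes and the 2 with the highest mean. From the cell type lists only some of the genes past the test or with the highest means are named. The HOX genes and the lists were chosen with earlier results of these data known. Alternatives covered the array block, pair means, odd or even arrays, arrays left out, scaling, the probe set rule, a low filter, the prior variance and array weights. Promoters come from RefSeq (GRCm38.p6).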

Additional observations from a re-analysis of the deposited data

Results flagged for a closer look

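Among the 66 groups of 6 arrays formed by the HOX genes and fractions, single arrays lay far from the others in 4. This is near the share that chance gives, about 1 in 20. Hoxc13 read 8.16 on CD34+ array 2 and 6.09 to 6.57 on the other CD34+ arrays. Hoxc6 read 5.15 on CD34- array 3 and 5.52 to 5.69 on the others, and its call was lost without this array (limma adjusted p = 0.0589). Hoxd11 read 3.96 on CD34- array 3 and 3.26 to 3.50 on the others. Hoxb2 read 6.41 on CD34- array 6, where the others lay within 6.55 to 6.58.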

How the results depend on the processing

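Over the 25 alternatives none of the 11 HOX genes past the test changed sign, and 3 of them passed in every one. Of the 22 others, 9 passed in at least 1. Even-numbered arrays alone (3 against 3) gave 4 HOX genes higher and, with limma, 0 lower (2 lower at an unadjusted p under 0.05), 626 higher and 725 lower over all genes and 8 called genes of the pathway lists, which had 26 with all arrays. Odd-numbered arrays gave 2346 higher over all genes and 44 in the lists. Median centring gave 5 HOX genes higher and over all genes 901 higher and 3801 lower, against 1454 and 3296 as reported. Further quantile normalization gave 1 HOX gene lower, with 2099 higher and 2499 lower over all genes. Without CD34+ arrays 1, 3 and 5, 1900 genes were lower. The odd-numbered CD34+ arrays are the same arrays 1, 3 and 5 that had the narrower spread of values. The cause of these shifts was not tested. Leaving out single arrays gave 7 to 10 HOX genes higher and 2 to 3 lower, 1041 to 2068 higher and 2627 to 3889 lower over all genes, and 24 to 37 in the lists. With the array number as a replicate block, 8 HOX genes were higher and 2 lower and Hoxc6 lost its call. The labels do not say what same-numbered arrays share. Correlations of their deviations were 0.43, 0.50 and 0.44 for numbers 1, 4 and 6 and -0.27, 0.22 and -0.17 for numbers 2, 3 and 5. Of 12 arrays, 6 correlated best with their own number. Whether the numbers follow the isolations is not known. Values near the low end of the scale limit what can be said of Hoxc10, Hoxd1, Hoxd10 and Hoxd12. They also limit Hoxa10, Hoxb1 and Hoxd3, whose CD34- means were below the Trpn mark.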
